A study of Homo sapiens with 6 samples.

Results

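The 57 genes described here encode the nuclear pore and the receptors that carry cargo through it. They were chosen by name from a table of 17202 genes: protein-coding symbols that start with NUP and a digit, KPNA, KPNB, XPO, IPO and a digit or TNPO, together with AAAS, NDC1, POM121, RAE1, SEH1L, TPR, RAN, RANBP1, RANBP2, RANGAP1, RCC1, CSE1L, NXF1 and NXT1. Of 65 symbols that matched, 7 were not protein-coding, and NUP210L had a mean of 7.61 normalized counts, under the required mean of 10. The other 57 all passed that filter through their mean over both groups, the lowest at 667. They were sorted by textbook assignment into 27 pore components in 6 subcomplexes, 17 importins, 7 exportins, 4 genes of the Ran cycle and the 2 subunits of the mRNA export receptor.

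The cells were DND41, a human T-cell acute lymphoblastic leukaemia line, grown in RPMI with serum. In 3 libraries the cells had received MB1-47, which the series title calls a mitochondrial uncoupling drug, for 24 h at a dose that the labels write as 4 mM, and in 3 libraries DMSO as the control for the same time. Strand-specific RNA-seq of total RNA gave 1 deposited normalized count per gene and library. The labels speak of plating in triplicate and do not say how separate the cultures were, so the p-values rest on variation among libraries that may partly be technical. All libraries come from a single cell line. The T-cell markers CD3D, CD3E, CD3G, CD7 and LCK were present (CD7 at 9248 ± 1039 normalized counts with DMSO and 2282 ± 181 with MB1-47), while CD2 and CD5 were at most 75.1. The 8 T-lineage markers summed to between 44550.0 and 48463 with DMSO and between 23887 and 26906 with MB1-47, and the part of this fall in the results was not tested. Of the B-lineage markers CD79A was high and fell from 16526 ± 572 with DMSO to 6826 ± 391 with MB1-47 (-1.28, adjusted p = 8.84e-07), and its part in the results was not tested. CD79B lay between 103 and 190 and PAX5 reached at most 23.1. The myeloid markers LYZ and CD14 reached at most 11.2 and 21.9 in any library. In bulk RNA, fewer cells of a type and less RNA per cell cannot be told apart.

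The nuclear pore is a ring of scaffold subcomplexes, the Y complex on the outer faces and the inner ring in the membrane plane, anchored by membrane nucleoporins and filled by FG-repeat proteins that form the permeability barrier. Importins and exportins, together called karyopherins, bind cargo and pass this barrier. Direction comes from the small GTPase Ran: RCC1 loads Ran with GTP in the nucleus, RANGAP1 with RANBP1 and RANBP2 triggers hydrolysis in the cytoplasm, Ran-GTP releases cargo from importins and is required for cargo binding by exportins. Most mRNA leaves by another route, the NXF1-NXT1 heterodimer, which does not use Ran directly. Growing and dividing cells need new pores and heavy transport of ribosomal proteins and pre-ribosomes.

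Transcripts of the pore and its receptors were mostly lower with MB1-47, and the few that rose were transport receptors. Of 57 genes, 38 fell, 3 rose and 16 did not pass the threshold, an adjusted p of 0.05 in limma's test over all 13465 genes tested. That is 66.7% lower and 5.26% higher, against 19.8% lower and 18.3% higher among all genes tested, and 29.9% lower and 25.8% higher among the 6086 genes with a mean of at least 1000, a level reached by 56 of the 57. The median log2 fold change of the 57 was -0.43, against 0.02 over all genes tested. The groups did not overlap in 50 of the 57 (87.7%, against 49.3% of all genes tested). The share without overlap was not computed for genes with a mean of at least 1000. Most changes were moderate: 8 genes fell at least 2-fold and none rose that far. When library totals were made equal, the median over all genes shifted by 0.13, the split over all genes went from 2458 higher and 2667 lower to 3335 higher and 2063 lower, and the 57 genes then held 31 lower and 5 higher, with a median of -0.30. The 15 alternative settings named below changed the scaling (equal library totals, quantile normalization or trimmed mean factors), the filter, the pseudocount or the model (no trend of the variance with level, or a replicate block), or left out 1 library. Changes below are differences in log2(normalized counts + 1), MB1-47 minus DMSO, each with its SE, and a group level is a mean ± SD (n = 3).

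**Figure D1:**
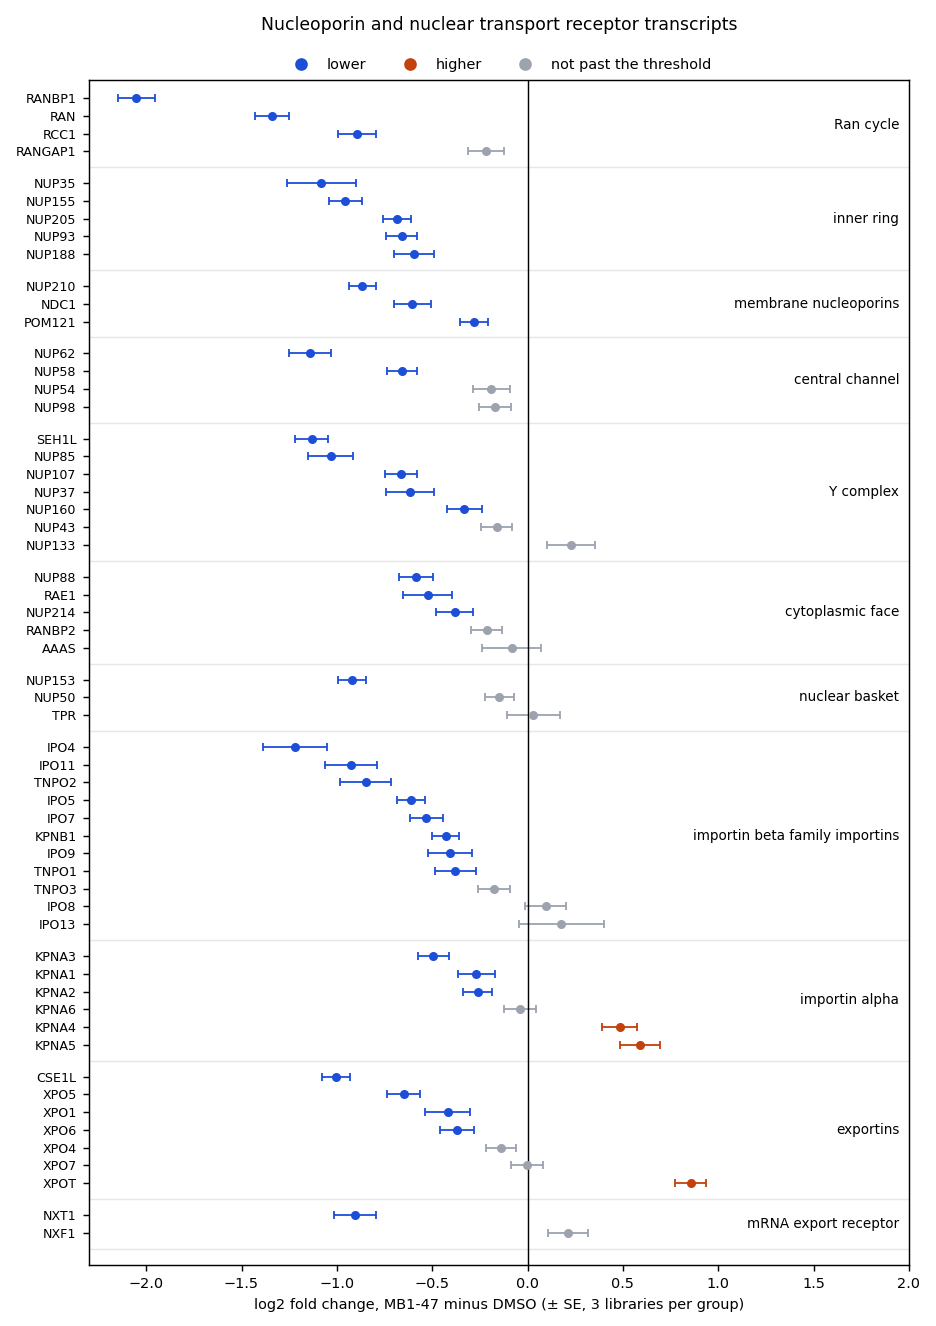
Log2 fold change (MB1-47 minus DMSO, ± SE, 3 libraries per group) of each of the 57 genes on the x axis, grouped by subcomplex or receptor class; blue points fell, red points rose and grey points did not pass the adjusted p threshold of 0.05. The 5 inner ring genes and the 3 membrane nucleoporins all lie left of 0, and the only red points are XPOT, KPNA4 and KPNA5.

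The classes differed in how far they moved. The mean change of a class was -1.13 for the Ran cycle, -0.80 for the inner ring, -0.58 for the membrane nucleoporins, -0.54 for the central channel and -0.53 for the Y complex. It was -0.36 for the cytoplasmic face and -0.35 for the nuclear basket. Among receptors it was -0.48 for the importins of the beta family, -0.25 for exportins and 0.00 for importin alpha. With equal totals the exportins moved to -0.12, the cytoplasmic face to -0.23, the nuclear basket to -0.22 and importin alpha to 0.13, and with quantile normalization the exportins moved to -0.12 and the basket to -0.23. In the importin alpha class the libraries of both groups interleaved, with DMSO libraries from -0.10 to 0.10 and MB1-47 libraries from -0.04 to 0.02 around the DMSO mean; in every other class all 3 MB1-47 libraries lay below all 3 DMSO libraries. Pore components as a whole had 19 of 27 genes lower (70.4%) and none higher (median -0.60). Importins and exportins together had 15 of 24 lower (62.5%) and 3 higher (12.5%), with a median of -0.38. Of the genes whose mean reached 1000, 29.9% were lower and 25.8% higher. Both sets thus held a larger share of falls and a smaller share of rises than those genes. These class values describe the members and carry no test.

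**Figure D2:**
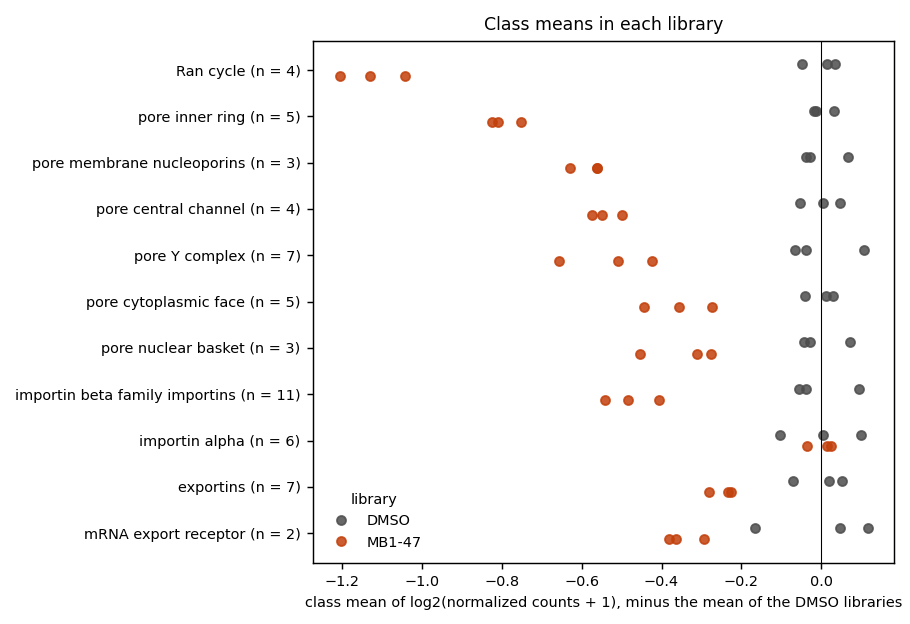
Mean of log2(normalized counts + 1) over the genes of each class in each library, minus the mean of the 3 DMSO libraries (x axis); each point is a library, grey for DMSO and red for MB1-47. The MB1-47 libraries lie from -1.21 to -1.04 in the Ran cycle and from -0.28 to -0.23 in the exportins, and overlap the DMSO libraries in importin alpha alone.

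The Ran cycle held the 2 largest falls of all 57 genes. RANBP1, a cytoplasmic partner that helps RANGAP1 act on Ran-GTP and lies on chromosome 22 from 20115938 to 20127357, stood at 21908, 17825 and 19999.9 normalized counts in DMSO libraries 1 to 3 and at 4838, 4393 and 5147 in MB1-47 libraries 1 to 3. Every MB1-47 library lay far below every DMSO library, and the transcript fell 4.15-fold (-2.05 ± 0.10, adjusted p = 3.25e-07). RAN itself, on chromosome 12 from 130871879 to 130877678, was at 33362, 27218 and 32434 with DMSO and at 11877, 11932 and 12813 with MB1-47. It fell 2.53-fold (-1.34 ± 0.09, adjusted p = 1.39e-06), with groups far apart. RCC1, the exchange factor that sits on chromatin, went from 3422, 4006 and 3704 to 1837, 2079 and 2066 and fell 1.86-fold (-0.90 ± 0.10, adjusted p = 4.94e-05). RANGAP1, the GTPase-activating protein at the pore's cytoplasmic side, was at 7482 ± 358 and 6454 ± 678; its groups did not overlap but its change of -0.22 ± 0.10 missed the threshold (adjusted p = 0.0943). NUTF2, the carrier that returns Ran-GDP to the nucleus and is not among the 57 genes, fell from 5127 ± 588 to 2440.0 ± 248 normalized counts (-1.07 ± 0.11).

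Because RAN and IPO4 had the largest falls, and XPOT the largest rise, among genes past the threshold with a promoter in the RefSeq table, their promoters are shown, from 250 bases before to 50 bases after the start, 5′ to 3′ on the gene's strand (GRCh38.p14). Capitals mark matches to a CACGTG E-box or to the ETS core CCGGAAG on either strand. The windows are chr12:130871816-130872115 (plus strand) for RAN, chr14:24188767-24189066 (minus strand) for IPO4 and chr12:64404142-64404441 (plus strand) for XPOT.
RAN: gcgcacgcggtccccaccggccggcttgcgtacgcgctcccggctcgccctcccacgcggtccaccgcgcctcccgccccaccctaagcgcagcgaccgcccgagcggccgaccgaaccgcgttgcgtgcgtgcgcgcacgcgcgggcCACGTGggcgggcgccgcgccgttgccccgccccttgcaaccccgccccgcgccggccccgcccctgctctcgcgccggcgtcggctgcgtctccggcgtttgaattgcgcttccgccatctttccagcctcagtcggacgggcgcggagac
IPO4: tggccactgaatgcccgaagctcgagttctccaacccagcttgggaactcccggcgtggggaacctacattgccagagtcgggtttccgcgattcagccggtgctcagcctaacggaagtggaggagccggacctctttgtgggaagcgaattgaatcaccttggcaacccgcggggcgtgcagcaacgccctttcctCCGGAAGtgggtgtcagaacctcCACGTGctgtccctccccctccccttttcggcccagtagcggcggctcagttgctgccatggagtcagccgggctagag
XPOT: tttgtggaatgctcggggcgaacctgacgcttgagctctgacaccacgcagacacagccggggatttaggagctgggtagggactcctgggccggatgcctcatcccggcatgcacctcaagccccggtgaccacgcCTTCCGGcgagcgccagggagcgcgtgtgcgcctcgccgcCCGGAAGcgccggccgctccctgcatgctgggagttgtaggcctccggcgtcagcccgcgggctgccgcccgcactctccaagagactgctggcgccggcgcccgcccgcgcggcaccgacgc
The RAN window held 1 E-box at bases 149 to 154, the IPO4 window 1 ETS core at bases 199 to 205 and 1 E-box at bases 222 to 227, and the XPOT window 2 ETS cores, at bases 138 to 144 and 178 to 184, and no E-box. Promoters were matched for 51 of the 57 genes by symbol, and where RefSeq gives several starts the first was used. An E-box was found in 7 of 51 (13.7%), against 10.1% of promoters of all genes tested and 7.43% of all promoters in the table. The ETS core was found in 17 (33.3%, against 19.9% and 10.7%). An E2F-type match (TTGGCGC or TTCCCGC on either strand) was found in 14 (27.5%, against 14.8% and 9.33%), and the NRF1 motif CATGCGC in 9 (17.6%, against 7.82% and 4.67%). Among the 36 matched genes that fell, the E2F-type match was present in 12 (33.3%), among them RCC1, NUP85, NUP107, NUP155 and NUP160. Of all 2081 genes that fell and had a promoter it was present in 19.9%. In the 36 the ETS core was at 36.1% against 23.7% and CATGCGC at 19.4% against 8.99%. The E-box, at 16.7% against 13.6%, was near the share of all genes that fell. Among the 14 matched genes that did not pass, the E2F-type match was at 14.3%, the ETS core at 21.4%, CATGCGC at 14.3% and the E-box at 7.14%. The genes compared were not limited to a mean of at least 1000. CATGCGC read on both strands can overlap itself, and each promoter was counted once per motif. A match describes letters in a window and no binding was measured.

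**Figure D3:**
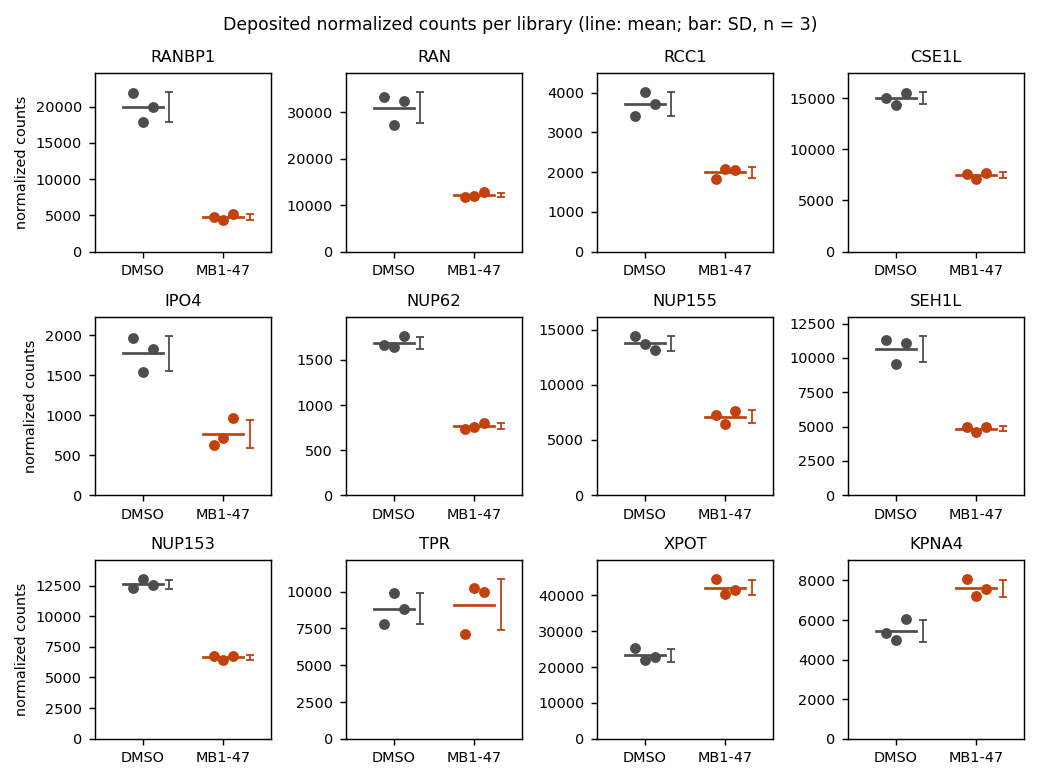
Deposited normalized counts (y axis, from 0) of 12 of the genes in each library, with DMSO in grey and MB1-47 in red; points are libraries, lines are group means and bars are SD (n = 3). RANBP1 falls from between 17825 and 21908 to between 4393 and 5147, XPOT rises to between 40517 and 44463, and TPR overlaps between the groups.

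All 5 genes of the inner ring, the scaffold that lines the membrane plane and holds the channel, were lower. NUP155, which contacts the pore membrane and lies on chromosome 5 from 37288137 to 37371181, was at 14425, 13702 and 13124 normalized counts with DMSO and 7264, 6431 and 7616 with MB1-47, and fell 1.94-fold (-0.95 ± 0.09, adjusted p = 1.05e-05). NUP35, a membrane-binding component and the gene with the fewest normalized counts of the 57, went from 1056, 865 and 794 to 517, 417 and 354 (-1.08 ± 0.18, adjusted p = 0.000694). NUP205 went from 11349.9, 11126 and 11177 to 7366, 6731 and 6869 (-0.68 ± 0.07). NUP93, the linker to the central channel, changed by -0.66 ± 0.08 and NUP188, a large scaffold protein related to NUP205, by -0.60 ± 0.10. No inner ring gene overlapped between the groups, as was so for 49.3% of all genes tested. All 5 stayed past the threshold in all 15 alternative settings.

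The 3 membrane nucleoporins, which anchor the ring in the nuclear envelope, also fell. NUP210 was at 19704, 20892 and 19328 with DMSO and 10869.5, 10898 and 11046 with MB1-47, a tight fall of 1.82-fold (-0.87 ± 0.07, adjusted p = 5.2e-06). NDC1 went from 11994, 9353 and 10392 to 6996, 6568 and 7220.2 (-0.60 ± 0.10, adjusted p = 0.000606). POM121 went from 10265, 9924 and 9854 to 8615, 7940.1 and 8218 (-0.28 ± 0.07, adjusted p = 0.0123), a small difference whose call was lost with equal library totals (-0.15, adjusted p = 0.0933), with quantile normalization (-0.17, adjusted p = 0.0661) and without a trend (adjusted p = 0.0528). POM121 has a close relative, POM121C, at 6132 ± 783 and 5348 ± 668, and the way reads were split between them is not given in the sources used here.

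In the central channel, where FG repeats form the barrier, the NUP62 complex was unevenly lower. NUP62 was at 1666, 1644 and 1766 with DMSO and 739, 756 and 802 with MB1-47, a fall of 2.21-fold (-1.14 ± 0.11, adjusted p = 1.81e-05). NUP58, its partner, went from 6880.0, 6395 and 6758 to 4301, 4175 and 4215 (-0.66 ± 0.08, adjusted p = 7.29e-05). NUP54, the third subunit of that complex, was at 2416 ± 147 and 2115 ± 94, without passing (-0.19 ± 0.10, adjusted p = 0.149). NUP98, whose transcript encodes both the FG protein NUP98 and the Y complex scaffold NUP96, was at 10302, 10823 and 11809.9 and 9007, 10221 and 10038; the groups did not overlap, but the change of -0.17 ± 0.09 missed the threshold (adjusted p = 0.143).

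The Y complex, the outer ring scaffold that also serves at kinetochores, split widely among its 7 members: 5 fell and 2 did not pass. SEH1L, a small propeller protein shared with the GATOR2 complex of amino acid sensing, went from 11314, 9590.3 and 11100.3 to 4984, 4638 and 4949 and fell 2.19-fold (-1.13 ± 0.09, adjusted p = 3.88e-06). NUP85, which binds SEH1L, went from 4552, 3928 and 4147 to 2400.2, 1834 and 1964 (-1.03 ± 0.12, adjusted p = 4.93e-05). NUP107 went from 6558, 6398 and 6349 to 4309, 3768 and 4135 (-0.66 ± 0.08). NUP37 changed by -0.61 ± 0.13, and NUP160 by -0.33 ± 0.09, a call lost without DMSO replicate 1 (-0.29, adjusted p = 0.0545), with equal totals (-0.20, adjusted p = 0.0631) and without a trend (adjusted p = 0.0554). NUP43, a propeller on the arm of the Y, was at 6784 ± 462 and 6052 ± 28.1 (adjusted p = 0.144). NUP133, at the tip of the stem, was at 9452, 8099 and 7238 with DMSO and 10673, 8052 and 10397 with MB1-47, with overlapping groups and a positive change of 0.23 ± 0.13 (adjusted p = 0.179). It passed as higher without MB1-47 replicate 2 (0.36, adjusted p = 0.0292), with equal totals (0.36, adjusted p = 0.0304) and with quantile normalization (0.33, adjusted p = 0.0363).

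On the cytoplasmic face, where export complexes are taken apart, 3 of 5 genes fell (60.0%, against 29.9% of genes with a mean of at least 1000). NUP88 went from 3278, 3162 and 3283 to 2083, 2237 and 2169 (-0.58 ± 0.09, adjusted p = 0.000383). RAE1, an mRNA export factor that binds NUP98, went from 1638, 1581 and 1877 to 1246, 1293 and 1014 (-0.52 ± 0.13, adjusted p = 0.00801). NUP214, which pairs with NUP88 and takes part in leukaemia fusions, went from 2462, 2362 and 2240.0 to 1806, 1906 and 1710.4 (-0.38 ± 0.10, adjusted p = 0.0101), a call lost with equal totals (-0.25, adjusted p = 0.0654). RANBP2, the giant filament protein and SUMO ligase, was at 24236, 24740.3 and 22040.4 and 21516, 19163 and 20478; its change of -0.21 ± 0.08 lay just outside the threshold (adjusted p = 0.0516), and it passed with a filter at a mean of 50 (adjusted p = 0.0444) and with the replicate block (0.0387). Its direction depended on the scaling, at -0.09 (adjusted p = 0.375) with equal totals and 0.04 (adjusted p = 0.704) with quantile normalization. AAAS, which is mutated in triple A syndrome, was at 1148 ± 181 and 1081 ± 168 with overlapping groups (-0.08, and 0.04 with equal totals). The RGPD genes are near-identical copies of part of RANBP2. RGPD1, the one with the highest normalized counts, had group means of 13889 and 15582 without passing, and RGPD2, RGPD3, RGPD6 and RGPD8 were higher (0.49, 0.35, 1.19 and 0.52), so the RANBP2 value is uncertain. The RGPD8 call was lost without DMSO replicate 1, DMSO replicate 2 or MB1-47 replicate 3 (adjusted p = 0.0866, 0.0833 and 0.15) and without a trend (0.0626), and the RGPD2 call without a trend (0.0914).

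In the nuclear basket, the filaments on the nuclear side, 1 of 3 genes fell. That share of 33.3% was near the 29.9% lower for genes whose mean reached 1000. NUP153, which binds importins and lamins, went from 12286, 12997 and 12561 to 6788, 6429 and 6764 and fell 1.89-fold (-0.92 ± 0.07, adjusted p = 4.48e-06). TPR, the long coiled-coil protein that forms the filaments, was at 7815, 9892 and 8856 with DMSO and 7143, 10251 and 9966 with MB1-47, with overlapping groups (0.03 ± 0.14, adjusted p = 0.882). NUP50, a cofactor that helps release cargo from importin alpha, was at 10968 ± 649 and 9887 ± 262 (-0.15 ± 0.08, adjusted p = 0.157). A single scaling factor per library cancels from the ratio of TPR to NUP153 within a library. On the log2 scale this ratio was -0.65, -0.39 and -0.50 with DMSO and 0.07, 0.67 and 0.56 with MB1-47.

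Among the 11 importins of the beta family, which carry cargo directly or through importin alpha, 8 fell (72.7%) and none rose. Of genes with a mean of at least 1000, 29.9% were lower and 25.8% higher. IPO4, an importer of histones and ribosomal proteins on chromosome 14 from 24180219 to 24188964, went from 1960.3, 1533 and 1820.1 to 629, 713 and 966, a fall of 2.33-fold (-1.22 ± 0.17, adjusted p = 0.000193). IPO11, which imports ubiquitin-conjugating enzymes, went from 4342, 2955 and 3734 to 1949, 2025 and 1766 (-0.93 ± 0.14, adjusted p = 0.000295). TNPO2, a transportin for RNA-binding proteins, went from 3680.3, 4481 and 3365 to 1839, 2432 and 2124 (-0.85 ± 0.13, adjusted p = 0.000476). In all 3 the highest MB1-47 library was below the lowest DMSO library.

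KPNB1, importin beta itself and the partner of importin alpha, fell less, from 28458, 28022 and 29159 to 21488, 20162 and 22047 (-0.43 ± 0.07, adjusted p = 0.000668; -0.18, adjusted p = 0.03, with quantile normalization). IPO5 and IPO7, both importers of ribosomal proteins and histones, changed by -0.61 ± 0.07 and -0.53 ± 0.09, and by -0.35 each with quantile normalization. IPO9, an importer of histones, changed by -0.41 ± 0.12 (adjusted p = 0.0185). It missed the threshold without DMSO replicate 2, DMSO replicate 3 or MB1-47 replicate 1 (adjusted p = 0.0638, 0.0575 and 0.0642), with equal totals (0.106) and without a trend (0.0869). TNPO1, transportin 1, changed by -0.38 ± 0.11 (adjusted p = 0.0163). It missed the threshold without DMSO replicate 1, DMSO replicate 3 or MB1-47 replicate 2 (adjusted p = 0.0609, 0.0577 and 0.0518), with quantile normalization (-0.17, adjusted p = 0.143) and without a trend (0.0944), and changed by -0.25 with equal totals. TNPO3, an importer of SR splicing factors, IPO8, a relative of IPO7, and IPO13, which works in both directions, did not pass, at -0.18 ± 0.08, 0.10 ± 0.11 and 0.18 ± 0.22.

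Importin alpha, the adaptor family that reads the classical nuclear localization signal, had members that moved in both directions. Of 6 genes analysed, KPNA5 and KPNA4 rose (33.3%), KPNA3, KPNA1 and KPNA2 fell and KPNA6 did not pass. Genes whose mean reached 1000 also moved in both directions, 25.8% of them higher and 29.9% lower. KPNA5 was at 2256, 1827 and 2138 normalized counts with DMSO and 3108, 2989.9 and 3221 with MB1-47, a rise of 1.5-fold (0.59 ± 0.10, adjusted p = 0.00111). KPNA4, on chromosome 3 from 160494995 to 160565588, went from 5336, 4982 and 6041 to 8052, 7194 and 7567, a rise of 1.4-fold (0.48 ± 0.09, adjusted p = 0.00185). Both kept their call in all 15 alternative settings, with all MB1-47 libraries above all DMSO libraries. KPNA3, the closest relative of KPNA4, went the other way, from 6317, 5789 and 6409.9 to 4358, 4296 and 4483 (-0.49 ± 0.08, adjusted p = 0.000675).

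KPNA2, an adaptor known to be abundant in proliferating cells, went from 12048, 11337 and 12572 to 9867, 9722 and 10422 (-0.26 ± 0.08, adjusted p = 0.0199). That call was lost without DMSO replicate 1, DMSO replicate 3 or MB1-47 replicate 1 (adjusted p = 0.0515, 0.0897 and 0.0609), without a trend (0.0765), with equal totals (-0.13, adjusted p = 0.132) and with quantile normalization (-0.11, adjusted p = 0.201). KPNA2P3, a transcribed pseudogene that may share its reads, rose by 0.87, from a mean of 98.6 to one of 179 (adjusted p = 0.0346), a call lost in 7 of 15 settings, 5 of which left out a library (DMSO replicates 1 and 2 and each MB1-47 replicate), with an adjusted p of up to 0.128. KPNA1, a relative of KPNA5 and KPNA6, changed by -0.27 ± 0.10 with an adjusted p of 0.0483, lost in 9 of 15 settings: without DMSO replicate 3 (-0.18, adjusted p = 0.199), MB1-47 replicate 1 (0.0853), 2 (0.126) or 3 (0.0763), with equal totals (-0.14, 0.241), quantile normalization (0.0779), trimmed mean factors (0.0551) or no filter (0.0557), and without a trend (0.138). KPNA6 stood at 4786 ± 235 and 4656 ± 221, a change of -0.04 that was 0.09 with equal totals.

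Per kilobase of transcript, KPNA2 held 56.8% ± 0.55 of the summed importin alpha level with DMSO and 53.6% ± 0.74 with MB1-47 (SD, n = 3). The share of KPNA4 was 6.66% ± 0.27 with DMSO and 10.5% ± 0.54 with MB1-47, and that of KPNA5 3.38% ± 0.27 and 5.73% ± 0.06. KPNA3 went from 15.2% ± 0.34 to 12.2% ± 0.09. In each of these 4 adaptors the shares of the groups did not overlap. Lengths are medians over protein-coding transcripts in GENCODE 29, so a share per kilobase depends on which transcripts the cells use. Whether the deposited values already carry a length correction is not known. If they do, a level or share per kilobase corrects for length a second time.

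The exportins carried both a large fall and the largest rise. CSE1L, the exportin that returns importin alpha to the cytoplasm, on chromosome 20 from 49046246 to 49096960, went from 15049, 14354 and 15513 to 7557, 7130.3 and 7702, a fall of 2.01-fold (-1.004 ± 0.075, adjusted p = 2.99e-06). XPOT, the exporter of tRNA, on chromosome 12 from 64404350 to 64451127, went from 25368, 21854 and 22758 to 44463, 40517 and 41508, a rise of 1.81-fold (0.86 ± 0.08, adjusted p = 1.38e-05). Neither gene overlapped between the groups or lost its call in any of the 15 settings. XPO5, the exporter of pre-miRNA, went from 9111, 8024 and 8819 to 5456, 5199 and 5896 (-0.65 ± 0.09, adjusted p = 0.000158).

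XPO1, the exporter of proteins with leucine-rich signals and the target of selinexor, went from 44897, 34372 and 37541 to 29266, 25061 and 33057 (-0.42 ± 0.12, adjusted p = 0.0163). The lowest DMSO library stood just above the highest MB1-47 library, and the call was lost without DMSO replicate 1 (-0.31, adjusted p = 0.0583) or MB1-47 replicate 2 (-0.32, adjusted p = 0.0504), with quantile normalization (-0.16, adjusted p = 0.187) and without a trend (0.101). XPO6, the exporter of actin, changed by -0.37 ± 0.09 (adjusted p = 0.0068; -0.24, adjusted p = 0.0647, with equal totals). XPO4 and XPO7 did not pass, at -0.14 ± 0.08 and -0.00 ± 0.08.

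Per kilobase, XPO1 was the largest part of the exportin sum in all 3 DMSO libraries and in MB1-47 libraries 1 and 3, with a mean share of 42.2% ± 2.60 with DMSO and 35.6% ± 3.05 with MB1-47. In MB1-47 library 2 XPOT was the largest, with 33.9% against 32.7% for XPO1. XPOT went from 16.2% ± 0.29 to 33.1% ± 1.66 and CSE1L from 19.1% ± 1.19 to 10.7% ± 0.17. With DMSO, XPOT stood below CSE1L in all 3 libraries, and with MB1-47 its share overlapped that of XPO1 (31.2% to 34.2% against 32.7% to 38.8%).

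**Figure D4:**
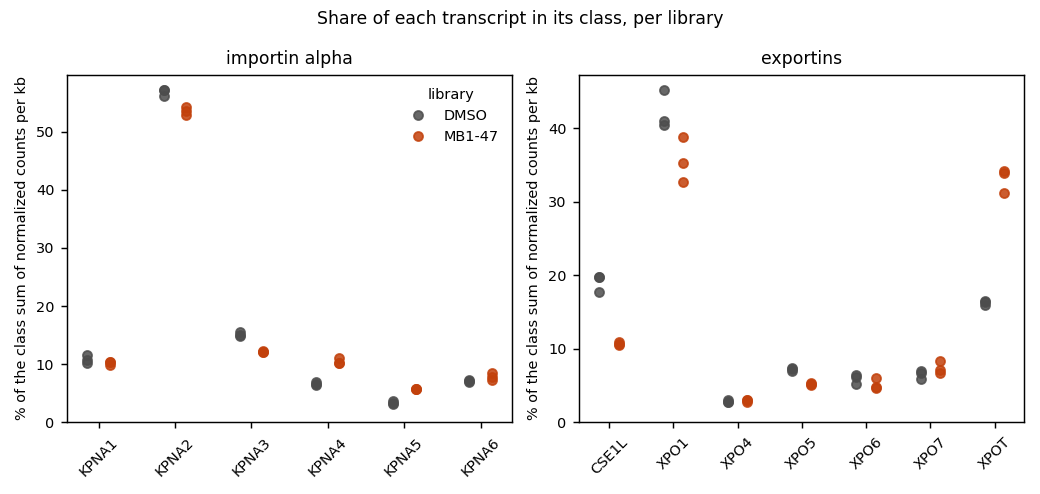
Share of each transcript in the summed normalized counts per kilobase of its class (y axis, %), for importin alpha on the left and exportins on the right; each point is a library, grey for DMSO and red for MB1-47. XPOT moves from between 15.9% and 16.4% to between 31.2% and 34.2%, and CSE1L from between 17.7% and 19.8% to between 10.6% and 10.9%.

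The mRNA export receptor was uneven. NXT1, its small subunit, went from 3085, 2586 and 2784 to 1404, 1458 and 1647, a fall of 1.87-fold (-0.91 ± 0.11, adjusted p = 8.28e-05). NXF1, the large subunit that binds RNA and FG repeats, was at 3195, 2580.4 and 3217 and 3515, 3474 and 3382; the groups did not overlap, and the change of 0.21 ± 0.10 missed the threshold (adjusted p = 0.136) but passed as higher with equal totals (0.34, adjusted p = 0.0154). The ratio of NXF1 to NXT1 was 0.05, -0.00 and 0.21 on the log2 scale in the DMSO libraries and 1.32, 1.25 and 1.04 in the MB1-47 libraries.

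Ratios within a library do not depend on a single scaling factor per library, and 13 pairs of paralogs or partners were compared in this way. A scaling that differs between genes or levels, such as quantile normalization, does not cancel. The pairs were chosen with the values known, so the ratios are a description without a test. The groups did not overlap in 12 of the 13, TNPO1 to TNPO2 being the exception. That count depends on the choice of pairs, and no share over other gene pairs was computed. The values are ratios of normalized counts to which no length correction was applied here. The shift between groups can be read from them and the order of the 2 genes cannot. The log2 ratio of KPNA4 to KPNA3 was -0.24, -0.22 and -0.09 with DMSO and 0.89, 0.74 and 0.76 with MB1-47, a shift of 1.97-fold, while per kilobase KPNA4 stood below KPNA3 in all 6 libraries. The ratio of IPO8 to IPO7 shifted by 0.63 and that of NUP133 to NUP85 by 1.26. The ratio of XPOT to XPO1 went from -0.82, -0.65 and -0.72 to 0.60, 0.69 and 0.33. RANBP1 fell further than RAN, from ratios of -0.61, -0.61 and -0.70 to -1.30, -1.44 and -1.32. CSE1L against KPNB1, the recycling exportin against the import receptor of the same cycle, moved from -0.92, -0.97 and -0.91 to -1.51, -1.50 and -1.52, with little spread in either group.

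**Figure D5:**
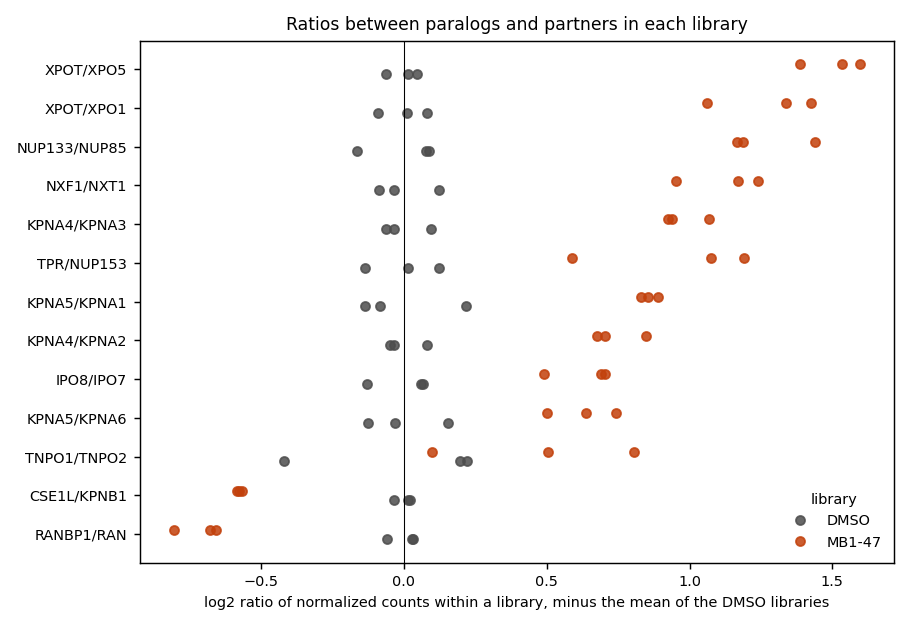
Log2 ratio of normalized counts of 2 genes within a library, minus the mean of the DMSO libraries (x axis), for 13 pairs; each point is a library, grey for DMSO and red for MB1-47. The MB1-47 libraries lie to the right of the DMSO libraries for XPOT/XPO5 and KPNA4/KPNA3, to the left for RANBP1/RAN and CSE1L/KPNB1, and overlap for TNPO1/TNPO2.

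By level per kilobase of transcript, the most abundant of the 57 transcripts with DMSO were RAN (21020 ± 2245 normalized counts per kilobase), RANBP1 (17589 ± 1804), XPO1 (9485 ± 1315), IPO5 (9287 ± 272) and KPNB1 (9025 ± 181). XPO1, IPO5 and KPNB1 did not differ beyond their spread. With MB1-47 RAN still led (8276 ± 356), followed by XPO1 (7096 ± 974), KPNB1 (6713 ± 306) and XPOT (6574 ± 320), which overlapped each other in their spread, and RANBP1 stood ninth at 4234 ± 335. XPOT was thirteenth with DMSO at 3637 ± 285. The order of genes assumes that the deposited values do not already carry a length correction, which is not known.

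Other genes of nuclear transport and of the nuclear envelope moved less uniformly. Of 20 further pore, assembly and adaptor genes, 7 fell, 3 rose and 10 missed the threshold (median -0.19). These are 35.0% lower and 15% higher, against 29.9% and 25.8% of the genes whose mean reached 1000. The largest changes past the threshold were those of NUTF2, DDX19A, an RNA helicase of the cytoplasmic face (-0.85 ± 0.13), and SNUPN, the import adaptor for spliceosomal snRNPs (-0.57 ± 0.13). SENP2, a SUMO protease of the basket (0.51 ± 0.13), NMD3, the adaptor that links large ribosomal subunits to XPO1 (0.41 ± 0.09), and RANBP6 (0.29 ± 0.09) were the 3 that rose. RANBP6 lost its call without any 1 library other than MB1-47 replicate 2 (adjusted p from 0.058 to 0.0804), and SENP2 without a trend (0.0612). NUPL2, the older symbol of NUP42 on the cytoplasmic face, fell (-0.41 ± 0.12), a call lost with equal totals (adjusted p = 0.0987) and without DMSO replicate 2, DMSO replicate 3 or MB1-47 replicate 1 (0.0651, 0.0618 and 0.0625). SEC13, the Y complex subunit that also serves in COPII coats, differed little (1266 ± 165 and 1290.0 ± 164, a change of 0.03 ± 0.14), and AHCTF1, which seeds pores on chromatin, fell (-0.45 ± 0.09).

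Of 20 genes of the TREX and TREX-2 complexes, which hand mRNA to NXF1, 7 fell, 2 rose and 11 did not pass (35.0% lower and 10.0% higher, median -0.22). ALYREF, the main adaptor, fell from 10633, 10139 and 12180.1 to 4248, 4488 and 4814 (-1.28 ± 0.09, adjusted p = 2.35e-06), CETN2 changed by -1.11 ± 0.17, and ZC3H11A and CHTOP were higher (0.67 ± 0.10 and 0.27 ± 0.09). The CHTOP call was lost without a trend (adjusted p = 0.0849) and without any 1 library other than MB1-47 replicate 2 (0.058 to 0.107). Of 14 tested genes of the lamina and inner nuclear membrane, 4 fell, 4 rose and 6 did not pass (median -0.07), or 28.6% in each direction, near the shares for genes whose mean reached 1000 (29.9% and 25.8%). LMNB1 and LMNB2, the B-type lamins, fell (-0.97 ± 0.10 and -0.70 ± 0.08), as did TMPO (-0.39 ± 0.07) and BANF1 (-0.78 ± 0.13). With quantile normalization TMPO was at -0.13 (adjusted p = 0.114). The linkers between lamina and cytoskeleton rose: SUN2 from 2134, 2780.5 and 3357 to 5711, 5445 and 5740.2 (1.05 ± 0.14, adjusted p = 0.000161), SYNE2 by 0.98 ± 0.19 and SYNE1 by 0.75 ± 0.21, as did LEMD2 (0.70 ± 0.14), while SUN1 did not pass (-0.13 ± 0.10). The SYNE1 call was lost without MB1-47 replicate 2 (adjusted p = 0.0506) and without a trend (0.0813). LMNA, the A-type lamin, was under the filter, listed at 0 in all 3 DMSO libraries and at 21.5, 17 and 7.4 with MB1-47.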

How the data were processed

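The deposited table holds normalized counts per gene symbol, a signal that is never negative and that the authors scaled between libraries; kallisto 0.44.0, DESeq and GRCh38.p13 are named in the submitters' processing notes, while the sources used here do not give the annotation, the summing to genes or any filter. In each library the value of 1 read was sought as the step whose whole multiples most low values lay near. With the best step, 59.0% to 64.4% of low values lay within 0.1 step of a whole multiple. The share to be met without any such step was not computed. Whole reads were not recovered, so depth is unknown and no counting interval is given. Library totals ran from 28323706 to 32667526 normalized counts. No pair of libraries shared a value above 0.

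Genes with a mean of at least 10 (13465) were tested on log2(value + 1) with limma 3.58.1 in R 4.3.3, with an intensity trend and Benjamini-Hochberg adjustment over all of them; steps were tested on simulated data. Fold changes understate those of low genes. The alternatives were pseudocounts of 0.5 and 5, no filter or a filter at 50, trimmed mean of M values factors (30% of log ratios and 5% of levels trimmed at each end, without count weights), equal library totals, quantile normalization, no trend, a replicate block and each library left out. Members, classes, lists and ratios were chosen with earlier results of these data known. Per class, the 3 genes that passed with the greatest change (mean at least 50), and 11 genes set by name, have their value in every library; other lists name up to 3, and further names complete small counts. KPNA7 was not analysed here. Gene positions are from GENCODE 29 (GRCh38).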

Additional observations from a re-analysis of the deposited data

How the results depend on the processing

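Of the 38 genes that fell, 29 kept their call in all 15 alternative settings, as did all 3 that rose, and no call turned in direction; the 9 others are given with their values in the report. With equal library totals the higher count was 5, the median of the 57 genes -0.30 and the class means -0.998 (Ran cycle), -0.67 (inner ring), -0.46 (membrane nucleoporins), -0.41 (central channel), -0.40 (Y complex), -0.23 (cytoplasmic face), -0.22 (nuclear basket), -0.35 (importin beta family), 0.13 (importin alpha) and -0.12 (exportins). With quantile normalization the median was -0.35 and the means -1.01 (Ran cycle), -0.72 (inner ring), -0.44 (membrane nucleoporins), -0.49 (central channel), -0.23 (nuclear basket), -0.38 (importin beta family) and -0.12 (exportins). Leaving out each library gave 34 to 37 genes lower, 3 or 4 higher, and medians from -0.48 to -0.44; where an arm had 2 libraries the spread was pooled over both groups. No pairing by replicate number was assumed in the main fit. Deviations of same-numbered libraries correlated at 0.02, 0.06 and 0.01, and those of libraries with different numbers at -0.06 to 0.03. The replicate block gave 40 lower and 3 higher, the added ones being RANGAP1 (adjusted p = 0.0442) and RANBP2 (adjusted p = 0.0387), with 2715 lower and 2531 higher over all genes. Tests on counts were not run, since whole reads were not recovered. Depth limits are unknown, and genes with near-identical copies (RANBP2, POM121, KPNA2) have uncertain values.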
